A study of Sus scrofa with 4 samples.

Results

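The 10 genes described here encode products of the oocyte: the growth factors GDF9 and BMP15, the secreted protein OOSP2, the zona pellucida proteins ZP2, ZP3 and ZP4, the cortical granule protease ASTL, the sperm receptor IZUMO1R, and the transcription factors FIGLA and NOBOX. They were chosen by name, as the rows of the count table that carry these symbols, and all 10 were found among 35248 rows, with 1 row per gene. The RNA came from porcine parthenogenetic embryos at the 4-cell stage, grown from oocytes that were activated by an electric pulse without sperm, kept in cytochalasin B and then cultured for 48 h in PZM-3 medium with serum albumin. Bobcat339, a compound given to inhibit the TET enzymes that oxidise methylated cytosine, was present at 50 µM in 2 samples, and the other 2 were the control, to which the labels assign DMSO at the same 50 µM. The study's title asks how this inhibitor alters gene expression in such embryos. The labels state neither the number of embryos behind each library nor whether replicates were separate cultures, so p-values measure a spread between samples that may be technical only.

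GDF9 and BMP15 are secreted ligands of the TGF-beta superfamily. The oocyte sends them to the surrounding cumulus and granulosa cells, where BMPR2 pairs with a type I receptor (TGFBR1 for GDF9, BMPR1B for BMP15) and SMAD proteins carry the signal to the nucleus. The zona pellucida is the glycoprotein coat of the egg, built in the pig from ZP2, ZP3 and ZP4. ASTL, also called ovastacin, leaves the cortical granules after egg activation and cuts ZP2, and IZUMO1R, also called JUNO, is the egg membrane protein that binds IZUMO1 on the sperm. FIGLA is a basic helix-loop-helix factor that activates zona genes together with E proteins, and NOBOX is a homeobox factor needed for the expression of GDF9 and BMP15 in growing oocytes. In a cleaving embryo such transcripts are for the most part inherited from the oocyte and are cleared as the embryonic genome is switched on, which in the pig occurs mainly around the 4-cell stage.

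Library totals lay between 13568525 and 14681221 counts, and 3 counts, the upper limit that a count of 0 allows by counting error alone, equal 0.204 to 0.221 CPM. CPM are counts scaled to library size, here with TMM normalisation. The labelled stage was checked against markers. Of 18 maternal transcripts listed, 12 had a row, led by WEE2 (4149 CPM) and H1FOO (2600 CPM), while ZAR1 (0.829 CPM) and LSM14B (0.911 CPM) were near the detection limit. Of 14 markers of the activated embryonic genome listed, 7 had a row, led by KLF17 (1183 CPM) and TFAP2C (619 CPM). The lowest of them were KLF5 (12.8 CPM) and ZSCAN4 (4.95 CPM). Of 19 cumulus and granulosa markers 16 had a row, and their summed level was 241 to 298 CPM with Bobcat339 and 243 to 324 CPM in the control. Most of that sum was KITLG (154 CPM), VCAN (71.8 CPM) and VIM (39.7 CPM), while STAR stood at 5.93 CPM and AMHR2, TNFAIP6, CYP19A1 and CYP11A1 had 3 to 24 counts per library. TNFAIP6 had 7 and 4 counts with Bobcat339 and 24 and 22 in the control (edgeR adjusted p = 0.999, unadjusted p = 0.00958). AMH had 0 counts in all 4 libraries and FSHR 1 count in all, and the part of such cells in the values of the 10 genes was not tested. The control libraries stood further apart than the Bobcat339 libraries, with a median absolute log2 ratio of 0.51 against 0.27 over 18481 tested rows. The 12 maternal markers had a median log2 CPM of −0.21 in control 1 and 0.23 in control 2 relative to each gene's mean, and 7 markers of genome activation had 0.34 and −0.21.

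The 10 genes differed widely in level. In counts, a measure not corrected for length, they together took 0.574% of the counts in Bobcat339 library 1 (95% exact Clopper-Pearson interval 0.571% to 0.578%), 0.699% in Bobcat339 library 2 (0.694% to 0.703%), 0.592% in control library 1 (0.588% to 0.596%) and 0.641% in control library 2 (0.637% to 0.646%). BMP15 and GDF9 made up 81.6% to 86.6% of these counts.

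Levels of different genes can be compared only per length, for which the authors' FPKM were used. BMP15 was the highest of the 10 genes, with 2873 and 3627 FPKM in the Bobcat339 libraries and 3191 and 3467 FPKM in the control libraries, and OOSP2 followed with 684 to 830 FPKM with Bobcat339 and 554 to 576 FPKM in the control. GDF9 had a mean of 210 ± 41.5 FPKM (SD, n = 4 libraries) and ZP4 168 ± 21.0 FPKM, and the ranges of these 2 neighbours in the order overlapped. ASTL came next with 106 ± 6.25 FPKM and then ZP2 with 61.9 ± 4.84 FPKM, each separated from its neighbours in all 4 libraries. NOBOX (23.3 ± 5.54 FPKM), ZP3 (18.9 ± 2.50 FPKM) and IZUMO1R (17.3 ± 3.11 FPKM) overlapped with each other. FIGLA was lowest with 0.727 to 1.83 FPKM. By mean FPKM BMP15 ranked 10 among all 35248 rows, OOSP2 43, GDF9 207 and FIGLA 16637. The zona transcripts were thus unequal in level: ZP4 made up 61.8% to 69.9% of the summed FPKM of the 3 zona genes, and ZP3 was the lowest of them in every library.

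**Figure D1:**
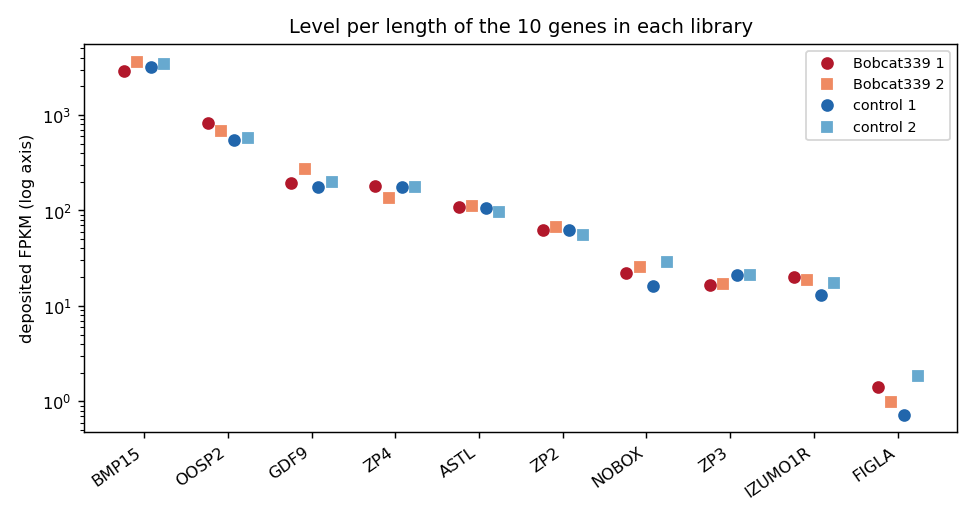
Deposited FPKM (log axis) of each of the 10 genes, ordered by their mean, with 1 point per library. BMP15 lies above all others at 2873 to 3627 FPKM, FIGLA lies at 0.727 to 1.83 FPKM, and the points of NOBOX, ZP3 and IZUMO1R overlap.

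The order rests on the length behind each value. For 9 of the 10 genes the FPKM follow from the count, the library total and the length given in the table, but for IZUMO1R they imply 2331 bases where the table lists 6208. With the listed length IZUMO1R would stand at 6.49 in place of 17.3 on the same scale, still ninth in the order. The GDF9 row, with a length of 4978 bases, reaches past the RefSeq gene on Sscrofa11.1 by 1068 bases at the lower and 2575 bases at the upper coordinate. That gene covers 2958 bases from start to end, a span and thus a measure unlike the length behind FPKM. With this span, and all counts of the row kept, GDF9 would stand at 353 FPKM, still the third. The IZUMO1R row likewise reaches past its RefSeq gene of 4859 bases, by 1273 bases at the lower and 4174 bases at the upper coordinate. Reads from there would be part of its count, which was not tested. The RefSeq genes of BMP15 and FIGLA extend 1177 and 7771 bases past the upper coordinate of their rows. Those of ASTL and OOSP2 extend past their rows by 1017 and 426 bases at the upper and by 936 and 965 bases at the lower coordinate. The FPKM of these 4 genes cover what lies within their rows.

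None of the 10 genes passed the test between Bobcat339 and control embryos. The differences were small: the largest was that of OOSP2, at a fitted 1.32-fold higher with Bobcat339, and the median absolute log2 fold change of the 10 genes was 0.16. Over all genes, 0 of 18481 (0%) passed edgeR's quasi-likelihood test at a Benjamini-Hochberg adjusted p of 0.05, with 740 (4.00%) at an unadjusted p under 0.05. On the same rows limma-voom called 0, and DESeq2 called 5 of 30007 rows (0.0167%), none of them among the 10 genes. With control library 1 left out 2.92% of the tested rows passed edgeR's test, and with control library 2 left out 2.47%, again with 0 of the 10 genes among them. Each of the 10 genes had an edgeR adjusted p of 0.999, and their unadjusted p ranged from 0.13 for OOSP2 to 0.903 for FIGLA. The fitted change was above 0 for 6 genes and below 0 for 4, with a median of 0.09, and over all tested rows 47.1% were above 0 with a median of −0.02.

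**Figure D2:**
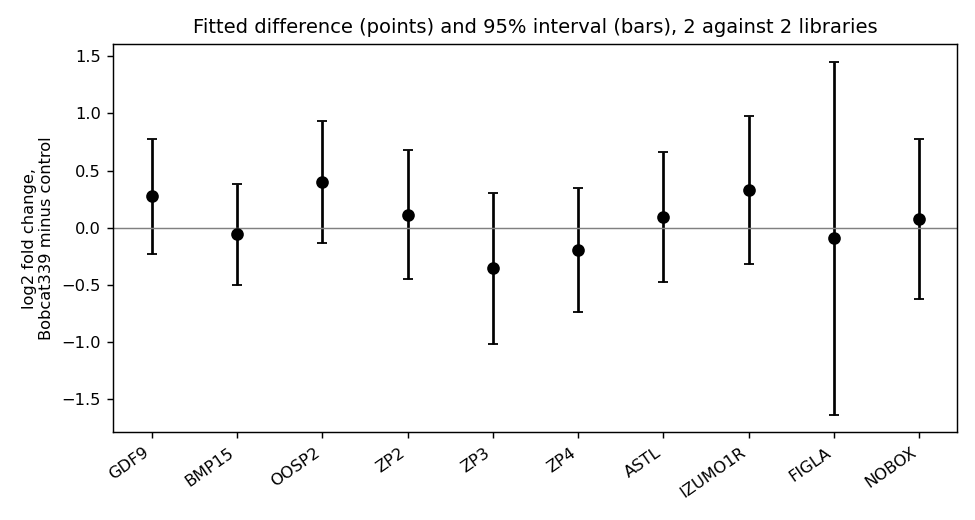
Fitted log2 fold change (points) of each gene, Bobcat339 minus control, with its 95% interval (bars) from the edgeR fit of 2 against 2 libraries. All 10 intervals include 0, and that of FIGLA is the widest, from −1.63 to 1.45.

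The growth factors differed from each other in pattern, and neither passed the test. BMP15 (ENSSSCG00000012310, chromosome X: 44613122 to 44619398, plus strand) had 54749 and 63881 counts with Bobcat339 and 59609 and 62329 in the control, or 3720, 4641, 4260 and 4450 CPM. The Bobcat339 libraries thus lay on both sides of the controls, which were close to each other. Its fitted log2 fold change was −0.06 (SE 0.21; 95% interval −0.50 to 0.38). The interval leaves room for a level between 0.708 and 1.30 times that of the control.

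GDF9 (ENSSSCG00000014288, chromosome 2: 135180426 to 135187026, minus strand) had 14059 and 18250 counts with Bobcat339 and 12633 and 13756 in the control, or 955, 1326, 903 and 982 CPM. Bobcat339 library 2 stood apart as the highest, and Bobcat339 library 1 fell between the controls. The log2 fold change was 0.28 (SE 0.24; 95% interval −0.23 to 0.78). It was 0.06 without Bobcat339 library 2 and 0.49 without Bobcat339 library 1. At its upper coordinate this row reaches 2575 bases past the RefSeq gene. Within that part it shares 573 bases with UQCRQ, a subunit gene of respiratory complex III on the opposite strand. The UQCRQ row held 127 to 295 counts.

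OOSP2, an oocyte-secreted protein (ENSSSCG00000039560, chromosome 2: 11427007 to 11433085, minus strand), had 5557 and 4234 counts with Bobcat339 and 3633 and 3638 in the control. In CPM these were 378 and 308 against 260 and 260, and the groups did not overlap. The log2 fold change was 0.40 (SE 0.25; 95% interval −0.13 to 0.93; unadjusted p = 0.13, edgeR adjusted p = 0.999). It ranked 1845 among the 18481 tested rows by p.

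The zona genes showed no common direction. ZP2 (ENSSSCG00000007851, chromosome 3: 24863730 to 24877522, plus strand) stood at 138 and 149 CPM with Bobcat339 and at 142 and 123 CPM in the control, with control library 2 lowest. Its log2 fold change was 0.12 (SE 0.27; 95% interval −0.45 to 0.68), 0.22 without control library 1 and 0.05 without control library 2. At its downstream end this row shares 886 bases with TMEM159 on the opposite strand, which held 230 to 332 counts against 1725 to 2048 for ZP2.

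ZP3 (ENSSSCG00000007691, chromosome 3: 9934760 to 9944941, minus strand) was lower in both Bobcat339 libraries, at 21.6 and 22.0 CPM, than in both control libraries, at 28.7 and 27.1 CPM. The replicates of each group were close, differing by no more than counting error. Its log2 fold change was −0.35 (SE 0.31; 95% interval −1.02 to 0.31). ZP3 and OOSP2 were the 2 genes of the 10 whose fitted difference was larger than the log2 ratio between the replicates of either group. The test, which takes its spread from all rows and not from these 2 pairs alone, gave an adjusted p of 0.999 for both (edgeR).

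ZP4 (ENSSSCG00000010141, chromosome 14: 53577131 to 53584546, plus strand) stood at 302 CPM in Bobcat339 library 1 and 310 and 297 CPM in the controls, while Bobcat339 library 2 was at 227 CPM. The fitted log2 fold change was −0.20 (SE 0.26; 95% interval −0.74 to 0.34), and 0.04 without Bobcat339 library 2. In Bobcat339 library 2 GDF9 and BMP15 were at their highest and ZP4 at its lowest of the 4 libraries.

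The egg surface and cortical granule genes also did not pass. ASTL (ENSSSCG00000008126, chromosome 3: 47059040 to 47070664, plus strand) was nearly level, with 128.7, 128.4 and 128.5 CPM in the Bobcat339 libraries and control library 1 and 113 CPM in control library 2. Its log2 fold change was 0.09 (SE 0.27; 95% interval −0.48 to 0.66), 0.19 without control library 1 and 0.03 without control library 2. IZUMO1R (ENSSSCG00000014952, chromosome 9: 26514818 to 26525123, plus strand) was at 47.2 and 42.5 CPM with Bobcat339 and at 31.2 and 40.2 CPM in the control. The groups did not overlap, but Bobcat339 library 2 was close to control library 2. Its log2 fold change was 0.33 (SE 0.31; 95% interval −0.32 to 0.98). It was 0.16 without control library 1 and 0.56 without control library 2.

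The transcription factors were the genes with the largest ratio between the control libraries. For FIGLA this ratio (2.43, 95% exact binomial interval 0.956 to 6.92) was within counting error. NOBOX (ENSSSCG00000024977, chromosome 9: 113348363 to 113354502, plus strand) stood at 38.5 and 44.0 CPM with Bobcat339, between control library 1 at 28.5 CPM and control library 2 at 49.5 CPM. The ratio of control library 2 to control library 1 was 1.74 (95% exact binomial interval for counting error 1.53 to 1.97). The fitted log2 fold change was 0.08 (SE 0.33; 95% interval −0.62 to 0.78), but −0.26 without control library 1 and 0.56 without control library 2. The maternal marker list was likewise lower in control library 1 than in control library 2, by the medians given above, and its part in this spread was not tested.

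FIGLA (ENSSSCG00000008321, chromosome 3: 71709702 to 71715989, plus strand) had 14 and 9 counts with Bobcat339 and 7 and 17 in the control, where a count of 0 would allow up to 3. These correspond to 0.951 and 0.654 CPM against 0.50 and 1.21 CPM, with both Bobcat339 libraries between the controls. Its log2 fold change of −0.09 (SE 0.73; 95% interval −1.63 to 1.45) is therefore hardly resolved at this depth, and it was 0.19 without Bobcat339 library 2 and 0.71 without control library 2. The zona genes, which FIGLA is known to activate in oocytes, stood at a mean of 18.9 (ZP3), 61.9 (ZP2) and 168 (ZP4) FPKM in the same libraries, next to 1.24 FPKM for FIGLA.

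**Figure D3:**
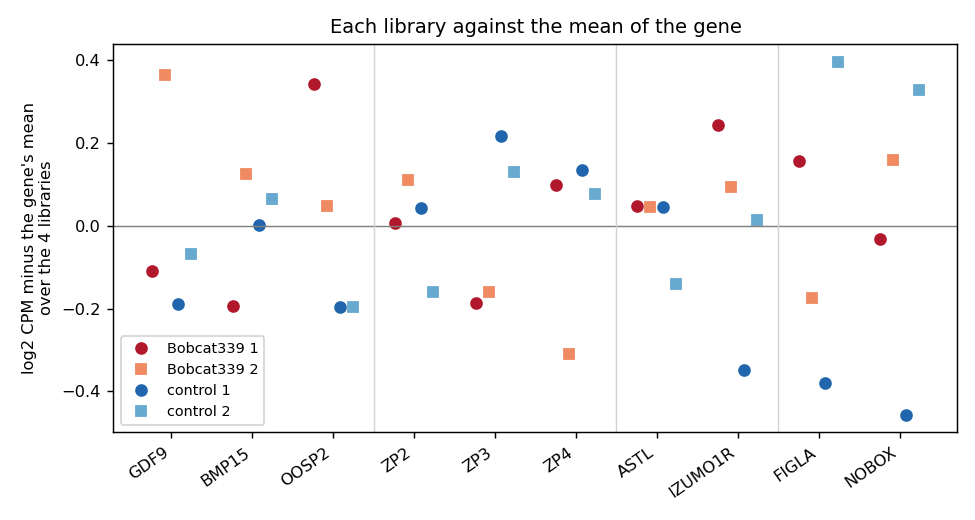
Log2 CPM of each gene in each library minus the average of that gene in all 4 libraries, with the genes ordered by role from left (growth factors and OOSP2) through zona and egg surface genes to the transcription factors on the right. The control points of NOBOX and of FIGLA (7 and 17 counts) lie far apart, and those of OOSP2 nearly coincide at −0.20.

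The spread between replicates was close in size to the differences between groups. The median absolute log2 ratio of replicate 2 to replicate 1 over the 10 genes was 0.24 for Bobcat339 and 0.15 for the control. It was 0.16 for the fitted group difference. These measures are unlike, since the ratio sets single libraries against each other. The group difference sets 2 libraries against 2 and varies less under the same noise. In each pair 6 of the 10 genes differed by more than counting error. The share of all tested rows that did so was not computed. This count depends on depth, and BMP15 was among the 6 in the control pair at a ratio of 1.04. In the Bobcat339 pair these included BMP15 (ratio 1.25, interval 1.23 to 1.26), GDF9 (1.39, 1.36 to 1.42) and ZP4 (0.753, 0.719 to 0.788). In the control pair they included NOBOX, IZUMO1R (1.29, 1.14 to 1.47) and ZP2 (0.867, 0.813 to 0.926). For ZP3, FIGLA and 2 others in each pair the counting interval included a ratio of 1.

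Both Bobcat339 libraries lay above both controls for 2 of the 10 genes, IZUMO1R and OOSP2, where 13.3% of all tested rows did so. They lay below both controls for 1 gene, ZP3, where 16.0% of all tested rows did. In either direction these are 3 of 10 genes, against 29.3% of all tested rows. These shares are close to the background, and 2 against 2 libraries cannot give an exact two-sided permutation p under 0.333. With DESeq2 size factors ASTL, and with no scaling or in the deposited FPKM ASTL and ZP2, also had both Bobcat339 libraries above both controls. That made 3 genes higher and 1 lower with DESeq2 size factors, where 14.5% and 14.9% of all tested rows were. With no scaling and in FPKM it made 4 higher and 1 lower, where 14.3% and 14.7% of all tested rows were. The number of genes above both controls thus depended on the scaling. Under each scaling tried IZUMO1R, OOSP2 and ZP3 kept their side.

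**Figure D4:**
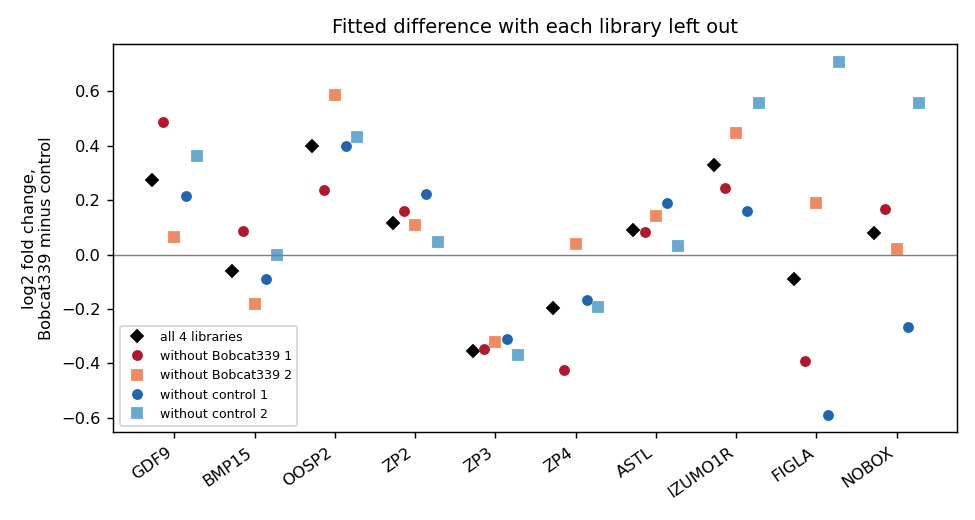
Fitted log2 fold change of each gene, Bobcat339 minus control, with all 4 libraries (black diamonds) and with each library left out in turn (coloured points). OOSP2 stays between 0.24 and 0.59 and ZP3 between −0.37 and −0.31, while BMP15, ZP4, FIGLA and NOBOX cross 0.

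The ratio of 2 transcripts within a library does not depend on how the libraries are scaled. BMP15 exceeded GDF9 by 14.9 and 13.4 times in FPKM in the Bobcat339 libraries and by 18.1 and 17.4 times in the control libraries. With the RefSeq span as the length of GDF9 these ratios would be 8.87 and 7.98 against 10.8 and 10.3, and in counts, with no length, they were 3.89 and 3.50 against 4.72 and 4.53. The ratio was lower in both Bobcat339 libraries, the fitted log2 fold changes of the 2 genes being −0.06 and 0.28. ZP2 exceeded ZP3 by 3.77 and 3.97 times with Bobcat339 and by 2.91 and 2.68 times in the control, again without overlap. ZP4 exceeded ZP3 by 10.9 and 8.03 times with Bobcat339 and 8.38 and 8.54 times in the control, and these overlapped. Over all 45 pairs of the 10 genes the groups did not overlap for 13 (28.9%), against 31.5% of all pairs of tested rows, so the share among these genes is near that of any 2 rows.

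**Figure D5:**
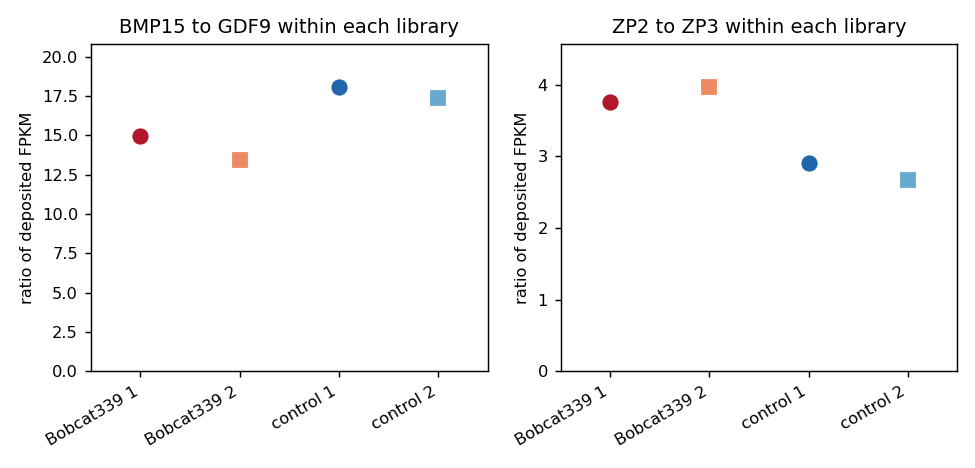
Ratio of the deposited FPKM of BMP15 to GDF9 (left) and of ZP2 to ZP3 (right) in each of the 4 libraries, on axes that start at 0. The size of the left ratio depends on the length taken for GDF9, here 4978 bases. The Bobcat339 libraries lie below the controls on the left (13.4 and 14.9 against 17.4 and 18.1) and above them on the right (3.77 and 3.97 against 2.68 and 2.91).

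The receptors and signal carriers of GDF9 and BMP15 were measured in the same embryos. Of 23 listed receptors, SMADs, convertases and antagonists, all had a row and 19 passed the filter on low counts. None passed the test in either direction (edgeR, smallest adjusted p = 0.773), where 0% of all rows did. The fitted change was above 0 for 11 and below 0 for 8, with a median of 0.11 against −0.02 over all rows. Highest by CPM were SMAD5, a carrier of BMP signals, at 202 CPM (log2 fold change 0.32), and BMPR1B, the type I receptor of BMP15, at 85.2 CPM (−0.10). Both Bobcat339 libraries lay above both controls for 7 of the 19, where 13.3% of all rows did, and below them for 1. These 7 were SMAD2, BMPR2, TGFBR1, GREM1, PCSK5, FST and ACVR1B, named after their values were seen. GREM1, a secreted antagonist of BMP ligands, had the smallest p of the list, with 21.3 and 18.6 CPM with Bobcat339 against 8.43 and 8.21 CPM in the control (log2 fold change 1.26, edgeR adjusted p = 0.773). FURIN, a convertase that cuts such ligands to their mature form, was the gene below both controls, at 2.92 and 3.05 CPM against 4.72 and 3.93 CPM, and ACVR1C was at 0 counts in all 4 libraries.

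Other secreted, zona and surface genes of the oocyte also gave no call. Of 14 listed, 9 had a row and 7 were tested, with 0 passing in either direction, 5 above 0, 2 below 0 and a median of 0.22. RSPO2, a WNT pathway enhancer, was the highest by CPM at 193 (log2 fold change −0.03), followed by the Notch ligand JAG1 at 121 CPM (0.26). Of 11 other oocyte transcription regulators and partners of FIGLA, 8 had a row and were tested, with 0 passing, 4 above and 4 below 0 and a median of −0.07. TAF4B, a subunit of the basal transcription machinery in germ cells, led with 225 CPM (0.29), before the LIM homeobox factor LHX8 at 167 CPM (0.04).

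By their mean profile over the 4 libraries, relative to each gene's own mean, the 10 genes stood at 0.04 and 0.03 with Bobcat339 and at −0.11 and 0.04 in control libraries 1 and 2 (log2). The 5 genes nearest to this profile among 3190 others with at least 50 CPM were PPP2R1B, CENPE, RPS6KC1, ZFP36L1 and KHSRP. Their Euclidean distance was 0.02 to 0.04 log2 units over 4 libraries, against a median of 0.41 over the 3190 genes. The mean profile is nearly flat, with control library 1 slightly lower, but the genes did not share it. In control library 1 NOBOX (−0.46), FIGLA (−0.38), IZUMO1R (−0.35), OOSP2 (−0.20) and GDF9 (−0.19) were below their own means. There ZP3 (0.22), ZP4 (0.13), ASTL (0.05), ZP2 (0.04) and BMP15 (0.002) were above theirs. Each gene has equal weight in the mean, FIGLA with its 7 to 17 counts included.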

How the data were processed

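Of the 4 libraries, grouped by their titles, the labels say that total RNA was extracted with TRIzol and prepared with Smart-seq2, a full-length cDNA method that does not mark the strand. The submitters' processing notes list the build Sscrofa10.2 and, with no role stated, DESeq2 1.16.1, HTSeq, Trimmomatic and HISAT2 2.0.5. The deposited coordinates overlap the gene of the same name on Sscrofa11.1 (RefSeq) for 98.8% of 14155 symbols, so they are given as Sscrofa11.1. All 10 genes overlapped their RefSeq gene, with 9 of them found there by the same symbol. The values tested are unnormalised read counts, 1 per row and library, as the authors deposited them. They also deposited FPKM, normalised by length and depth, which follow from the count and the listed length within 1% for 62.0% of rows with a count and imply a shorter length for the rest. Strand and multi-mapping settings of the counting are not stated, so overlapping genes cannot be told apart.

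The comparison was fitted in R 4.3.3 with edgeR 4.0.16 (rows kept by filterByExpr at min.count 10, TMM, glmQLFit, glmQLFTest, Benjamini-Hochberg over 18481 rows). The method was tested on simulated data. The common biological coefficient of variation was 26.4%. Each standard error and 95% interval was derived from the F statistic of the fitted change. Alternatives were DESeq2 1.42.0, limma-voom (limma 3.58.1), edgeR without scaling or with size factors from DESeq2, without a filter or with a minimum of 5 CPM in 2 libraries, with a replicate block, with any of the libraries left out, and other gene lengths, of which the RefSeq span was added after the data were seen. Ratios between replicates carry exact binomial intervals, and profiles use log2 of CPM plus 0.5. These and the intervals for shares of counts cover counting error only. Reads carry no molecular identifiers, so such intervals take each read as independent and may be too narrow. The chi-square per row between replicates was 12.8 (Bobcat339) and 48.9 (control), beyond sampling noise in both.

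The 10 genes and the lists were chosen with earlier results of these data known. Text names all 10, the 2 most abundant tested genes of each list and the 5 genes nearest in profile, and marks any other.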

Additional observations from a re-analysis of the deposited data

How the results depend on the processing

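Of the 10 genes 0 passed under any of the 11 alternatives. Of 109 fitted changes under alternatives, FIGLA being untested at 5 CPM, 103 kept their sign and 6 turned: FIGLA with limma-voom (0.0173) and, with a library left out, FIGLA (range −0.588 to 0.71), BMP15 (−0.182 to 0.0858), ZP4 (−0.423 to 0.0398) and NOBOX (−0.265 to 0.559). The turns came for FIGLA without Bobcat339 replicate 2 (0.189) and without control replicate 2 (0.71), for BMP15 without Bobcat339 replicate 1, for ZP4 without Bobcat339 replicate 2 and for NOBOX without control replicate 1. The count of passing genes over all rows was 5 with DESeq2, and it ranged from 0 to 586 with a library left out, 586 without control replicate 1 and 494 without control replicate 2, the lone control being assumed to vary like the Bobcat339 pair. The smallest adjusted p of the 10 genes was then 0.252, for OOSP2. The labels give both groups the numbers 1 and 2 without saying that they pair the samples, and with the replicate block 44 genes passed. Deviations of same-numbered samples from their group means correlated at 0.19 across genes. Of the levels per length, 5 genes stood at or above 100 FPKM under each length used.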

Other observations

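Unannotated loci lay close upstream of BMP15 and ZP4, both on the strand opposite to the gene. The locus before BMP15 (chromosome X: 44594708 to 44612735, minus strand) ends 386 bases before the gene and held 565 and 688 counts with Bobcat339 and 503 and 565 in the control. Its log2 fold change was 0.21 (SE 0.31; edgeR adjusted p = 0.999), and like BMP15 it was highest in Bobcat339 library 2. The locus before ZP4 (chromosome 14: 53563380 to 53573886, minus strand) ends 3244 bases before the gene and stood at 43.8 and 46.6 CPM with Bobcat339 against 36.4 and 42.2 CPM in the control (log2 fold change 0.20, edgeR adjusted p = 0.999). In Bobcat339 library 2, where ZP4 was at its lowest, this locus was at its highest by CPM. Its counts in Bobcat339 libraries 1 and 2 were close, however, at 645 and 641, where ZP4 stood at 302 and 227 CPM. Of the 10 genes, 4 lie on chromosome 3 (ZP2, ZP3, ASTL and FIGLA), and their fitted changes had both signs.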
